A study of Mus musculus with 4 samples.

Results

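Dividing cells were rare in the vaginal epithelium of ovariectomised mice: 50 of the 3480 cells kept from the 2 libraries of these mice carried the transcripts of cell division, 9 of 1573 in OVX library 1 and 41 of 1907 in OVX library 2. The cells were chosen by their own transcripts: a cell was counted as dividing when its raw counts of 10 cell cycle genes (Mki67, Top2a, Ube2c, Birc5, Cdk1, Ccnb1, Cenpf, Nusap1, Prc1 and Tpx2) summed to at least 3 molecules and its counts of the 4 MHC class II genes Cd74, H2-Aa, H2-Ab1 and H2-Eb1 summed to at most 2. The second condition removes antigen-presenting cells, which divide in some tissues. Barcodes with fewer than 200 genes, or with more than 20% of their molecules from mitochondrial genes, were dropped first, and 8446 cells of the whole series remained. These 14 genes chose the cells, so their values are given as a description with no test. The cells were set against the other 1564 and 1866 kept cells of the same libraries.

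A dividing cell copies its DNA in S phase and then condenses, aligns and separates its chromosomes in mitosis. S phase needs licensing factors that open replication origins, fork proteins that copy the strands and enzymes that make deoxynucleotides. Mitosis is driven by cyclin B with Cdk1, built on kinetochores and spindle motors, and ended when the anaphase promoting complex with Cdc20 marks cyclin B for destruction. In the vaginal epithelium, a stratified epithelium, division takes place mostly in basal keratinocytes that express Krt5, Krt14 and the transcription factor Trp63, and oestrogen from the ovary stimulates it. Removal of the ovaries thins the epithelium, and the cells at its surface then take on a mucous, simple-keratin character.

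The libraries came from vaginal epithelium of C57BL/6 mice, digested with pronase and squeezed out of the opened vagina by hand, and were made by Drop-seq, a droplet method that tags each transcript with a cell barcode and a unique molecular identifier (UMI). The groups were wild-type mice that were not ovariectomised (WT) and mice whose ovaries had been removed by surgery (OVX), with 2 libraries each and 5 mice pooled into every library. Whether the duplicates are separate pools of animals is not clear from the labels. The p-values describe at most the variation from library to library, possibly only technical. In the contrasts of dividing with other cells, that spread was pooled over genes. Neither the age of the mice nor the time from surgery to collection is given in the sources used here.

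Depth differed between the libraries and limits what the OVX cells can show. The kept cells had a median of 435 UMIs in OVX library 1 and 738 in OVX library 2, against 1597 and 799 in the WT libraries. Dividing cells were deeper than the rest, with medians of 871 UMIs against 432 in OVX library 1 and 974 against 733 in OVX library 2. Their median mitochondrial share was 8.03% against 8.99%, and 8.5% against 9.72%. The part of this depth difference in the results was not tested except where counts were thinned. No barcode of the 50 cells occurred in another library, although the OVX libraries share 15 barcodes in all. No doublet caller was run.

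The share of dividing cells was 0.572% in OVX library 1 (95% exact Clopper-Pearson interval 0.262 to 1.08) and 2.15% in OVX library 2 (1.55 to 2.91). By the same rule it was 30.5% (910 of 2979 cells) and 22.8% (454 of 1987 cells) in the WT libraries. Both OVX shares were far below both WT shares and the groups did not overlap, at 1.36% ± 1.12 (SD, n = 2) against 26.7% ± 5.44 (SD, n = 2). An exact two-sided permutation test over libraries gave p = 0.333, the smallest that 2 libraries against 2 allow. The intervals cover counting error only.

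The groups stayed apart when depth was matched. After each cell was thinned to 400 UMIs, the shares were 0.65% and 1.29% in the OVX libraries and 16.9% and 13.2% in the WT libraries, with 693 OVX and 43 WT cells left out as shallower. Among cells with at least 1000 UMIs they were 2.74% (2 of 73 cells) and 4.07% (20 of 491) against 33.8% and 36.7%. The order of the 2 OVX libraries was the same in each of these counts, but their intervals overlapped after thinning and in cells with at least 1000 UMIs.

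**Figure D1:**
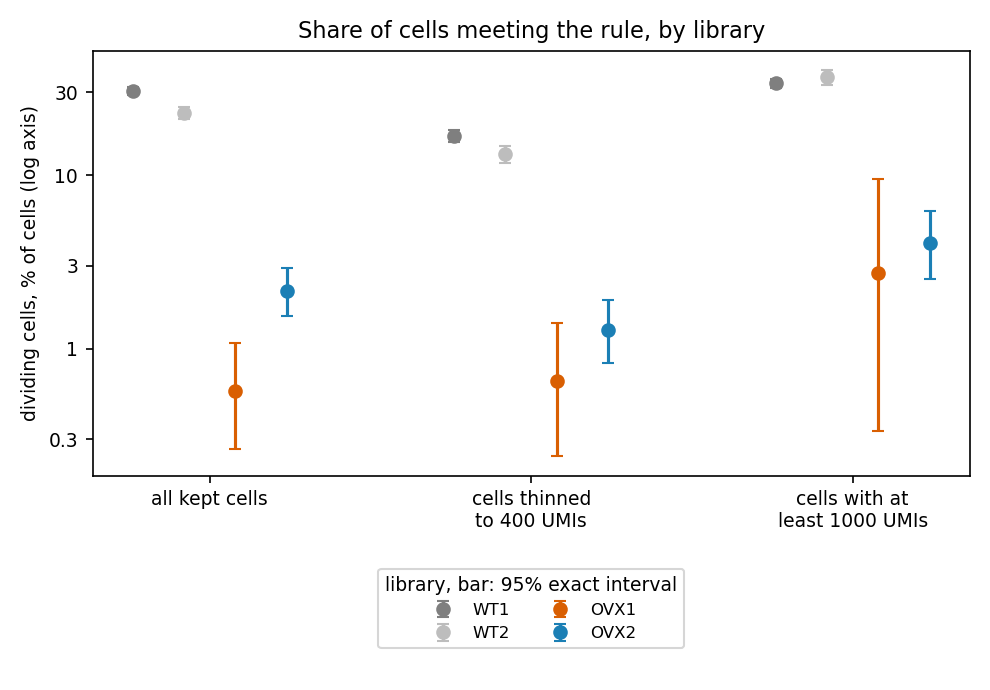
Share of cells that meet the rule for dividing cells in each library, on a log axis, over all kept cells, after thinning each cell to 400 UMIs, and in cells with at least 1000 UMIs; bars are 95% exact Clopper-Pearson intervals. The OVX libraries lie between 0.572% and 4.07% and the WT libraries between 13.2% and 36.7%.

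Most OVX cells held no molecule of the 10 genes, and the cells just outside the rule were few. In OVX library 1, 1515 cells that passed the MHC condition had 0 such UMIs, 26 had 1, 8 had 2, none had 3 and 2 had 4. In OVX library 2 the corresponding numbers were 1761, 69, 15, 11 and 2. Cells with 2 UMIs had median depths of 588 and 967 UMIs, and the cells with exactly 3 in OVX library 2 had 974. Among cells over the MHC limit, 0 of 15 in OVX library 1 and 2 of 21 in OVX library 2 had 3 or more UMIs of the cycle genes.

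The level of the 10 genes in the chosen cells is set in part by the rule, since 3 UMIs weigh more in a shallow cell. The 50 cells held 118 and 526 UMIs of the 10 genes in OVX libraries 1 and 2. The median per cell was 105 and 80 per 10,000 UMIs, next to 77.7 and 75.3 in the dividing cells of the WT libraries. The other cells held 0.557 and 0.782 per 10,000 in the OVX libraries and 2.85 and 3.7 in the WT libraries.

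Mki67, which coats mitotic chromosomes and is the standard proliferation marker, contributed 22.9% and 23.4% of these UMIs in OVX libraries 1 and 2, and was found in 9 of 9 and 31 of 41 cells. Cenpf, a kinetochore protein, gave 24.6% and 18.6%. Top2a, the topoisomerase that untangles sister chromatids, gave 11.9% and 21.9%. Prc1, a spindle midzone protein, gave 13.6% and 11.4%, and Nusap1, a spindle protein, 11.9% and 7.6%, so that in OVX library 1 Prc1 stood above Top2a and Nusap1 equal to it. The lowest shares were those of Ccnb1, cyclin B, at 1.69% and 1.71%, Cdk1, its kinase, at 2.54% and 2.47%, and Ube2c, the ubiquitin-conjugating enzyme of mitotic exit, at 0.847% and 3.04%. In the WT libraries Ube2c gave 5.97% and 11.2%, so that both of its OVX shares were lower. Ube2c had 1 UMI in OVX library 1 and 16 in OVX library 2. The OVX shares of Birc5, Cdk1, Ccnb1 and Tpx2 were also below both of their WT shares. Those of Cenpf were above its WT shares of 14% and 6.69%.

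The 50 cells differed widely among themselves. The 19 cells with 10 or more UMIs of the 10 genes held 74.7% of all such UMIs, and the 15 cells with 3 or 4 held 7.61%. The cell with the highest count, in OVX library 2, had 63 UMIs of the 10 genes among 2949 UMIs in all. Lists of other mitotic genes (cyclins and kinases, centromere and kinetochore, spindle, anaphase promoting complex) and of replication genes (licensing, fork and repair, deoxynucleotide synthesis) were summed in each cell. At least 3 UMIs of the mitotic lists were found in 46 of the 50 cells, at least 3 of the replication lists in 34, and of both in 33. Such UMIs have a background: at 400 UMIs per cell, at least 1 mitotic-list UMI was in 100% and 90.2% of the dividing cells and in 42.2% and 45.6% of the other cells of OVX libraries 1 and 2. For the replication lists it was 77.8% and 82.9% against 49.8% and 55.6%, and without thinning 100% and 92.7% against 57% and 73.8%.

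Cells with few and with many cycle UMIs carried different mixtures. In OVX library 2 the 15 cells with 10 or more UMIs of the 10 genes held 373 mitotic UMIs and 53.9 replication UMIs per 10,000. The 13 cells with 3 or 4 held 55.6 mitotic and 92.9 replication UMIs per 10,000, next to 16.5 and 24.2 in the cells of that library with 0 cycle UMIs. These replication UMIs were unevenly spread: 8 of the 13 cells had at least 3, and single cells held 0 to 44. In OVX library 1 the 4 cells with 10 or more had 371 mitotic and 43.4 replication UMIs per 10,000, and the 2 cells with 4 had 150 and 24. Among the dividing cells, more replication UMIs at few cycle UMIs were thus seen in OVX library 2 as a sum, carried by some cells. OVX library 1 had too few dividing cells to show it. The cells with 2 cycle UMIs, 8 and 15 in OVX libraries 1 and 2, count among the other cells by the rule. They held 90.7 and 74.2 replication UMIs per 10,000, against 21.5 and 24.2 in the cells with 0 cycle UMIs. Their mitotic UMIs were 47.3 and 35.6 per 10,000 against 14.5 and 16.5. Whether some of them were cycling was not tested. The pattern is a description, since most of the 10 genes are themselves highest in mitosis.

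Single cells showed both ends. One cell of OVX library 2 had 3 UMIs of the 10 genes, 12 of the mitotic lists and 44 of the replication lists among 2029 UMIs. Another had 37 of the 10 genes, 59 mitotic and 5 replication UMIs among 1459. One cell, with 766 UMIs and the minimum of 3, had no UMI of either group of lists, so that the 10 genes are its only sign of division.

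**Figure D2:**
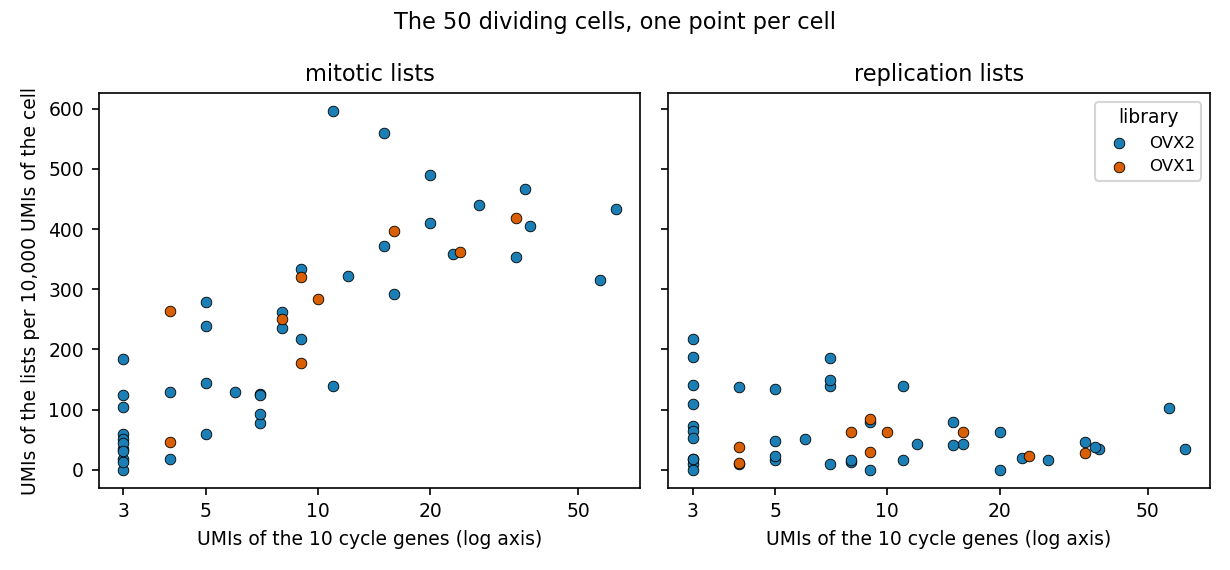
UMIs of the mitotic lists (left) and of the replication lists (right) per 10,000 UMIs of the cell, against the cell's UMIs of the 10 cycle genes (log axis), for the 50 dividing cells of the OVX libraries. Mitotic UMIs are high in the cells with 10 or more cycle UMIs, while replication UMIs are spread over cells with few and many.

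Whether other transcripts were counted together with the 10 genes was tested on UMIs summed over the dividing cells and over the other cells of each library, with edgeR's quasi-likelihood test across 10762 genes. Of these genes, 194 (1.8%) differed: 127 (1.18%) were higher and 67 (0.623%) were lower in the dividing cells of the OVX libraries at an adjusted p of 0.05. Among the 127 were the 10 genes of the rule and 82 members of the cell cycle lists, leaving 35. The median log2 difference over all genes tested was -0.60, or 0.11 when the 2664 genes with no UMI in one class were set to 3 UMIs there. In the small dividing sums this floor scores some absent genes as higher. Medians with the floor are therefore not bounds on a fall. When libraries were scaled by their totals alone, the median was -0.17 and the counts were 192 higher and 28 lower. Levels below are CPM, the UMIs of a gene per 1000000 UMIs of the class, and log2 differences and their SE come from the edgeR fit.

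Of 16 mitotic cyclins and kinases tested, 15 were higher in the dividing cells and none was lower, with a median log2 difference of 6.3 (5.45 with the genes at 0 UMIs set to 3). Ccnb2, a second cyclin B, stood at 592 and 312 CPM in the dividing cells of OVX libraries 1 and 2, against 1.27 and 2.52 in the other cells. It rose by 6.87 on the log2 scale (SE 0.76, edgeR adjusted p = 1.21e-16), with no overlap between the classes. Aurka, the kinase that matures spindle poles, had 2 and 9 UMIs in the dividing cells and none in the other cells of either library. That is at least 146-fold higher against a floor of 3 UMIs over both libraries (edgeR adjusted p = 1.47e-12). Plk1, a kinase of mitotic entry named here after its values were seen, had 1 and 5 UMIs in the dividing cells and 1 and 2 in the rest, and its difference of 5.74 (SE 1.19, edgeR adjusted p = 1.77e-04) was lost without WT library 1 and without OVX library 2 (largest edgeR adjusted p over the alternatives 0.58).

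Kinetochore genes were the next group, with 17 of 24 tested higher and none lower (median log2 difference 3.99, or 4.23 with zeros at the floor). Cenpe, the kinetochore motor that brings chromosomes to the spindle equator, stood at 2248 and 1560 CPM in the dividing cells against 5.06 and 24.6 in the rest. It rose by 6.01 (SE 0.34, edgeR adjusted p = 8.80e-65). Cenpa, the histone that marks centromeres, stood at 1065 and 273 against 6.33 and 0.631 CPM and rose by 6.93 (SE 0.71, edgeR adjusted p = 8.09e-20). Both were present in both libraries. Knl1, a scaffold of the outer kinetochore, was found only in OVX library 2 (24 UMIs against 4 in its other cells). Without that library the call for Knl1 was lost, as were those for Nuf2, Ncapg and 13 other named rises.

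Spindle genes showed the largest number of rises, 28 of 35 tested with none lower (median 5.11, or 5.17 with zeros at the floor). Kif23, a motor of the central spindle and cytokinesis, stood at 710 and 722 CPM against 5.06 and 1.26, and rose by 7.63 (SE 0.58, edgeR adjusted p = 1.61e-36). Anln, which organises the contractile ring, stood at 947 and 507 against 3.8 and 3.15 (log2 difference 6.93, SE 0.61, edgeR adjusted p = 5.11e-27). Ckap2, a spindle microtubule protein, stood at 1183 and 819 against 8.86 and 11.4 (log2 difference 5.89, SE 0.44, edgeR adjusted p = 8.62e-38). Aspm, Hmmr, Cdca8 and Kif15 rose by 7.51, 6.37, 5.75 and 5.24 in that order. The tubulins Tubb5 and Tuba1b, which all cells use and which were chosen after their values were seen, were measured at 225 to 339 CPM in the other cells and at 936 to 1893 in the dividing cells. Their calls were lost when either WT library was left out.

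The remaining mitotic groups moved in the same direction in smaller numbers. Of 8 genes of the anaphase promoting complex and mitotic exit, 3 were higher. Cdc20, the activator of that complex, had 2 and 18 UMIs in the dividing cells against 2 and 4 in the rest and rose by 6.48 (SE 0.76, edgeR adjusted p = 6.83e-15). The others were Cdkn3, a phosphatase that acts on cyclin-dependent kinases, and Fbxo5, an inhibitor of the complex. Of 24 genes of chromosome condensation and chromatin, 11 were higher. Hmgb2, a chromatin protein, stood at 2485 and 1424 CPM against 144 and 102, a rise of 3.36 (SE 0.28, edgeR adjusted p = 1.52e-30), and Smc4, a condensin subunit, stood at 1656 and 1638 against 206 and 255, a rise of 2.30.

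Fewer DNA replication genes passed. One of 18 licensing genes tested was higher, Mcm3, a subunit of the replicative helicase, with 0 UMIs in OVX library 1 and 17 in OVX library 2 (log2 difference 2.22, SE 0.53, edgeR adjusted p = 0.00266). Its call held in 7 of 15 alternatives and was lost, among others, with DESeq2, without the block and when WT library 1, WT library 2 or OVX library 2 was left out. Of 45 fork and repair genes, 6 were higher, among them Pclaf, Clspn, Atad2 and Hells (the last 2 with no UMI in OVX library 1, and called in 5 and 6 of 15 alternatives). Pclaf, a partner of the sliding clamp, stood at 828 and 234 CPM against 10.1 and 5.68, and rose by 5.12 (SE 0.72, edgeR adjusted p = 2.04e-10) and passed in each of the 15 alternatives with 4.41 to 5.75 (largest edgeR adjusted p 0.0174). None of 10 deoxynucleotide genes passed. The medians of these 3 lists were 1.17, 1.2 and 1.34, against -0.60 over all genes tested. Those of the mitotic exit and chromatin lists were 1.08 and 1.72. Hist1h1b, a linker histone, was the 1 of 9 replication-dependent histones that passed, at 4.42; histone transcripts mostly lack a poly(A) tail and were captured here through poly(A).

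In WT, the same contrast in the same fit called 15.4% of genes, 6.76% higher and 8.67% lower, and 14 of the 18 licensing genes and 40 of the 45 fork genes were among them. The WT sums rest on 910 and 454 cells and on 2206430 and 571231 UMIs, the OVX sums on 8452 and 51270 UMIs. With the depth that unequal, a gene that passed in WT and not in OVX is not shown to differ, and the difference itself was tested. Across all genes 26 (0.242%) passed that test, among them 5 genes of the rule, which chose the cells. The log2 effect of OVX minus that of WT was positive in 18 (0.167%, with those 5) and negative in 8 (0.0743%). None of these calls remained when either WT library was left out.

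Of the 17 named genes that passed it, 12 had the more positive effect in OVX: Mt2 and 11 genes of cell division, which stood further above the other cells in OVX than in WT. The rule asks for the same 3 UMIs at unlike depth: dividing cells had medians of 871 and 974 UMIs in OVX and 2028 and 1062 in WT. It can thus shift this effect for cycle genes by itself, and its part was not tested. In cells with at least 1000 UMIs none of the 12 passed. For Cenpe the class effect was 6.01 in OVX and 3.79 in WT (difference 2.22, SE 0.36, edgeR adjusted p = 1.71e-06). For Kif23 it was 7.63 and 4.25 (difference 3.38, SE 0.63, edgeR adjusted p = 1.68e-04). The other cells of the WT libraries held 45 and 26.5 CPM of Cenpe, those of the OVX libraries 5.06 and 24.6, and the dividing cells 732 and 306 in WT against 2248 and 1560 in OVX.

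The promoters of the genes that define and accompany division were read from RefSeq (build GRCm38.p6), because many mitotic genes share 2 short elements: TTTGAA, the core of the cell cycle genes homology region, and CCAAT, the site of NF-Y. The 120 bases before the start of 3 genes of the rule and of 2 genes tested outside it are printed 5′ to 3′ along the gene, with each TTTGAA or CCAAT on either strand (also read as TTCAAA and ATTGG) in capitals.
Ube2c, chr2:164769809-164769928, plus strand: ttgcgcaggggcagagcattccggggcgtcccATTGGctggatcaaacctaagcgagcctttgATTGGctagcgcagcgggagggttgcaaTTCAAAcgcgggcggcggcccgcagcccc
Cdk1, chr10:69352913-69353032, minus strand: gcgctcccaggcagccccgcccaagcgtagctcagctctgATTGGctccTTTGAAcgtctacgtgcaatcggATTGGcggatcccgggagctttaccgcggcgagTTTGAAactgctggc
Top2a, chr11:99024190-99024309, minus strand: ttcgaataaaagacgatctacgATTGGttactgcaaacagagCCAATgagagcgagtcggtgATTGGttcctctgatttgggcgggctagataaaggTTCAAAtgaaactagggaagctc
Cdc20, chr4:118437344-118437463, minus strand: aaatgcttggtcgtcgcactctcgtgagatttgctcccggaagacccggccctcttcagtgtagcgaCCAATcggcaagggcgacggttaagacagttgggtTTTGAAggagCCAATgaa
Ckap2, chr8:22185820-22185939, minus strand: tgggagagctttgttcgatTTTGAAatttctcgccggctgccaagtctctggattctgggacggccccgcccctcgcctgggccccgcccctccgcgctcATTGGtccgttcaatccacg
All 5 hold both elements in these 120 bases, and Cdk1 holds 2 of each.

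Over the full 300-base windows of the table (250 before the start to 50 after), TTTGAA occurred in 18.1% and CCAAT in 37.9% of 27025 promoters, and both in 7.12%. Among the 72 of 85 genes of the mitotic lists that have an entry, 59.7% held TTTGAA, 77.8% held CCAAT and 50% held both. Among the 10 genes of the rule, 6 held both. For the replication lists 58 of 74 genes had an entry (78.4%), too few for a share to be given. A match of these letters is a description and not a binding site.

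The dividing cells were keratinocytes by their keratins. A UMI of Krt5 or Krt14, the keratin pair of basal cells, was found in 48 of the 50 cells. A UMI of Krt8 or Krt18, the pair of simple and luminal epithelium, was found in 23, both pairs in 22, and neither in 1. At 400 UMIs per cell, Krt5 or Krt14 was found in 88.9% and 80.5% of the dividing cells of OVX libraries 1 and 2 and in 74.8% and 79.5% of the other cells. Krt8 or Krt18 was found in 33.3% and 17.1% against 18.3% and 13.4%. Without thinning the first pair was in 100% and 95.1% against 78.2% and 89.9%, and the second in 55.6% and 43.9% against 18.7% and 25.2%. The exact intervals of the dividing cells spanned the thinned values of the other cells in all 4 cases.

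By level the keratins did not pass the test either. Krt5 stood at 2603 and 2809 CPM in the dividing cells and at 2095 and 2958 in the rest (log2 difference -0.45, SE 0.27, edgeR adjusted p = 0.596). Krt14 stood at 3195 and 2906 against 2252 and 2183 (log2 difference -0.06, SE 0.27, edgeR adjusted p = 0.959), and its sign turned to 0.42 (edgeR adjusted p = 0.0169) when libraries were scaled by totals alone. Krt8 stood at 355 and 254 against 104 and 110 (log2 difference 0.87, SE 0.45, edgeR adjusted p = 0.523), with each dividing value above each other value but resting on 3 and 13 UMIs.

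Free RNA in droplets sets a floor under such detections. In the macrophage or dendritic-like cells of OVX libraries 1 and 2, Krt5 stood at 601 and 0 CPM and Krt14 at 240 and 54.6, and in the fibroblast-like cells at 0 and 629 and at 0 and 210, all below every dividing value. Krt8 was at 0 UMIs in these cells and in the fibroblast-like cells of both libraries. Krt18 stood at 120 and 0 CPM in the first and at 240 and 210 in the second, from 1 or 2 UMIs where it was found. Its 215 CPM in the dividing cells of OVX library 2 was close to the fibroblast-like value there and above the macrophage or dendritic-like one. How much of it came from free RNA was not tested.

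Trp63, the master transcription factor of basal keratinocytes, had 5 and 13 UMIs in the dividing cells. At 400 UMIs per cell it was found in 33.3% (exact interval 7.49 to 70.1) and 19.5% (8.82 to 34.9) of them and in 9.63% and 6.86% of the other cells, and without thinning in 44.4% and 29.3% against 10.7% and 14%. In OVX library 2 the interval lay above the share of the other cells, and in OVX library 1 it did not. By level it stood at 592 and 254 against 243 and 191 CPM, and the fit did not call it (log2 difference 0.14, SE 0.46, edgeR adjusted p = 0.939).

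Other cell types were close to absent. The 50 cells held 0 UMIs of the lists for smooth muscle (5 genes in the files), endothelium (3), macrophages outside the rule (14), T or NK cells (10), neutrophils (3), red cells (2) and melanocytes (1). Of 6 fibroblast genes, the collagen-binding proteoglycan Dcn had 2 UMIs, both in 1 cell of OVX library 2. The other cells of the 2 libraries held 168 and 314 UMIs of the fibroblast list and 152 and 354 of the macrophage list. At the dividing cells' depth of 8452 and 51270 UMIs, a list at 0 UMIs is allowed up to 436 and 72 CPM by the exact Poisson interval. The macrophage list stood at 192 and 223 CPM in the other cells, below that limit in OVX library 1 and above it in OVX library 2. This contrast was largely fixed in advance, since the rule counts cells over its MHC class II limit among the other cells.

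The 50 cells were placed among the other cells by clustering all OVX cells without the genes of the cell cycle lists. The 35 other genes called higher in the dividing cells were not excluded, and their part in forming the clusters was not tested. Of the 50, 17 fell in cluster 0, 3 in cluster 1, 25 in cluster 2, 3 in the suprabasal-like cluster and 2 in the luminal-like cluster. None fell among the 27 fibroblast-like cells. None fell among the 39 macrophage or dendritic-like cells either, which the MHC class II limit of the rule largely fixed in advance. Clusters 0 and 1 were basal-like by markers such as Krt14, Trp63 and Itgb4. Cluster 2 had Krt5 and Krt14 but only these 2 basal markers and stayed unnamed. Its leading genes were cell cycle genes and Krtdap, a gene of differentiating keratinocytes.

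Cluster 2 had the highest share of dividing cells in both libraries, 2.42% (4 of 165) and 4.24% (21 of 495). In cluster 0 it was 0.952% (3 of 315) and 1.66% (14 of 842), and the intervals of the 2 clusters overlapped in OVX library 1 and, at 2.64 to 6.41% against 0.912 to 2.77%, narrowly in OVX library 2. In the suprabasal-like cluster 0 of 276 and 3 of 346 cells were dividing (0.867% in OVX library 2), and in the luminal-like cluster 0 of 66 and 2 of 96. Cluster 1 came mostly from OVX library 1 (726 of its 813 cells), was led by pseudogenes and held 0.275% and 1.15% dividing cells. A share near 0 in a small cluster is weakly bounded: 0 of 66 luminal-like cells allows up to 5.44%.

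The class of a dividing cell depended on the grain of the clustering. At resolution 0.8, 40% of the 50 cells lay in basal-like clusters (exact interval 26.4 to 54.8%) while 56.6% of all OVX cells did. At resolution 0.4, where cluster 2 was not separate, 90% did, and at 1.2, 54%. Cluster 2 differed from cluster 0 in having less Trp63, at 145 and 125 CPM against 467 and 321, and more Krtdap, at 250 and 171 against 0 and 13.3.

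**Figure D3:**
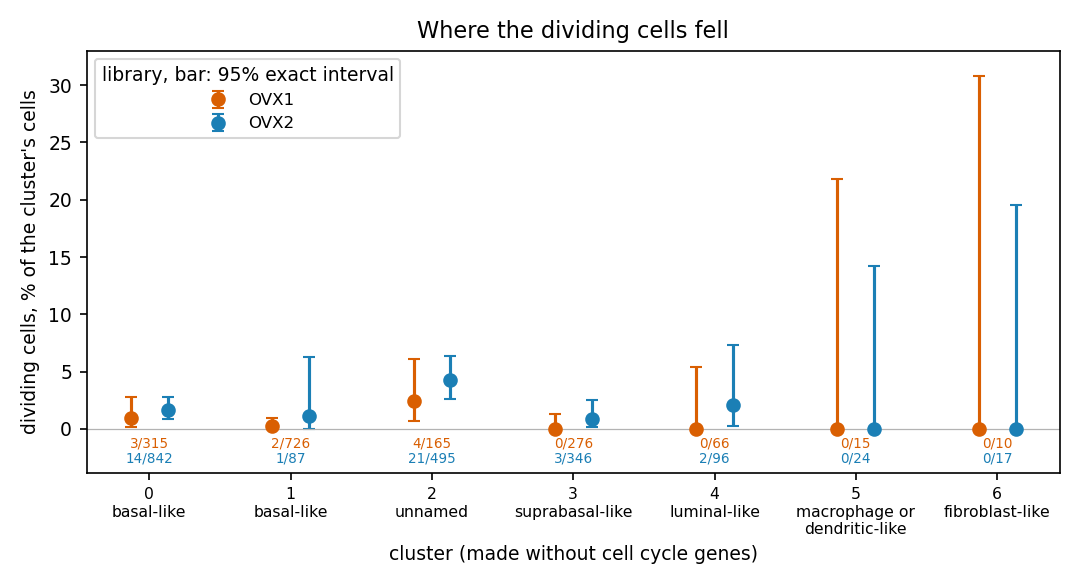
Share of dividing cells in each cluster of the OVX cells, by library, with 95% exact Clopper-Pearson intervals; the fractions give dividing cells over all cells of the cluster. The unnamed cluster 2 is highest in both libraries, at 2.42% and 4.24%, and the small clusters have wide intervals.

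Genes lower in the dividing cells were fewer and less stable than those that were higher. The fit called 67, of which 2 are MHC class II genes of the rule. Under other choices the count went from 0 (no replicate block) over 8 (DESeq2) to 125 (without OVX library 1). Of the 22 falls named here, 0 were called without the block, 2 and 4 without WT library 1 and 2, and 7 with DESeq2. The scaling factor (TMM) of the dividing cells of OVX library 1 was 2.11, against 0.788 to 1.11 in the other 7 sums, and with totals alone 14 of the 22 falls were called.

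Spink5, an inhibitor of epidermal proteases that is made by differentiating keratinocytes, had the smallest adjusted p among the falls named. It was named after its values were seen, as was Malat1. It stood at 710 and 975 CPM in the dividing cells against 3206 and 5317 in the rest, with no overlap (log2 difference -2.80, SE 0.28, edgeR adjusted p = 1.01e-20). It was called in 14 of 15 alternatives and lost without the block (edgeR adjusted p = 0.223). At 400 UMIs per cell it was found in 11.1% and 14.6% of the dividing cells and in 31.3% and 31.9% of the others, and without thinning in 11.1% and 31.7% against 27% and 37.2%. Malat1, an abundant nuclear long RNA, stood at 15854 and 11176 against 25113 and 18363 CPM, a fall of 1.29 on the log2 scale, and its call was lost when either WT library was left out.

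Il33, an alarmin cytokine kept in the nucleus of epithelial cells, had 0 UMIs in the dividing cells of OVX library 1 and 9 in those of OVX library 2, against 652 and 1024 in the other cells. It fell by 2.62 (SE 0.46, edgeR adjusted p = 1.66e-06), a call lost only without the block (edgeR adjusted p = 0.169). Krt17, a keratin of activated and appendage epithelium, had 1 and 7 UMIs in the dividing cells against 556 and 750 in the rest and fell by 2.41 (SE 0.50, edgeR adjusted p = 1.96e-04). Krt15, a basal keratin, stood at 2011 and 1131 against 2572 and 1616, a fall of 0.99 (edgeR adjusted p = 0.00431) that 7 of 15 alternatives did not call. At 400 UMIs per cell Krt15 was found in 55.6% and 39.0% of dividing cells and in 55.3% and 41.3% of the rest, and without thinning in 88.9% and 70.7% against 58.7% and 58.3%. The fall in level had no counterpart in the share of cells.

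The D-type cyclins, which act in G1, were also lower. Ccnd2 stood at 118 and 429 CPM against 954 and 1053 and fell by 1.86 (SE 0.34, edgeR adjusted p = 5.28e-06). Ccnd1 stood at 355 and 468 against 816 and 791 and fell by 1.26 (SE 0.33, edgeR adjusted p = 0.0115). They were the 2 of 25 tested G1 cyclins, inhibitors and arrest genes to pass. Ccnd2 was called in 12 of 15 alternatives and Ccnd1 in 8. Both were lost without the block and with the OVX libraries only, and Ccnd1 also with DESeq2 and with totals alone. The cyclin-dependent kinase inhibitors Cdkn1a and Cdkn1b did not pass (log2 differences 0.49 and 0.07, edgeR adjusted p = 0.902 and 0.977).

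Differentiation lists gave few calls. Of 31 suprabasal genes tested, 1 was lower (Krt17) and none was higher, with a median of -0.94. It became 0.02 when the 11 genes at 0 UMIs in one class were set to the floor. That value does not show that the fall disappears, since the floor can score an absent gene as higher. The macrophage list, at 0 UMIs in the dividing cells, had a median of 1.58 by the same floor. Of 23 luminal and mucin genes, 2 were lower: Fmo2, a flavin monooxygenase, at 355 and 468 against 1034 and 948 CPM (log2 difference -1.54, SE 0.31, edgeR adjusted p = 8.17e-05), and Ltf, the iron-binding secreted lactoferrin, with 0 UMIs in the dividing cells against 51 and 158. Ltf was at least 1.75-fold lower. Of 22 basal genes, 2 were lower (Il33 and Krt15) and 1 higher. That was Mt2, a metal-binding metallothionein, at 1538 and 1053 against 314 and 373 CPM (log2 difference 1.21, SE 0.33, edgeR adjusted p = 0.0195), a call lost without WT library 1, WT library 2 or OVX library 2.

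The 8 largest falls by the naming rule were genes with no UMI at all in the 50 cells, so that only a lower bound on their fall can be given. They included Scel, a cornified envelope protein with 79 and 229 UMIs in the other cells, and Ythdf2, a reader of methylated RNA with 79 and 178. For Scel the fall was at least 2.58-fold and for Ythdf2 at least 2.15-fold, with edgeR adjusted p = 0.00494 and 0.0362. Scel was called in 7 of 15 alternatives and Ythdf2 in 3, and neither with DESeq2 or without the block. Lrrfip2, Slu7, Clybl and Pik3ip1 had bounds from 1.94 to 2.84.

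Hormone receptors and growth genes did not separate the classes. None of 9 hormone receptor and target genes tested passed, nor did any of 25 growth factor ligands and receptors or of 22 ribosome biogenesis genes. Esr1, the oestrogen receptor, had 5 UMIs in the dividing cells of each OVX library, at 592 and 97.5 CPM against 142 and 199 in the rest (log2 difference -0.57, SE 0.52, edgeR adjusted p = 0.67). Pgr, the progesterone receptor, had 0 and 1 UMIs. With so few molecules no difference was detectable at this depth.

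Calls among ribosomal protein and mitochondrial genes depended on the fit. Of 83 ribosomal protein genes tested 17 were lower, and 0 with DESeq2, without the block or when either WT library was left out. Their median of -0.72 was close to the -0.60 of all genes. Their summed share was 8.64% and 9.24% of UMIs in the dividing cells of OVX libraries 1 and 2, and 9.87% and 11.1% in the other cells. Of 10 mitochondrially encoded genes 2 were lower, the ribosomal RNAs mt-Rnr1 and mt-Rnr2, with log2 differences of -0.66 and -0.95, and neither was called with DESeq2, without the block or when either WT library was left out.

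**Figure D4:**
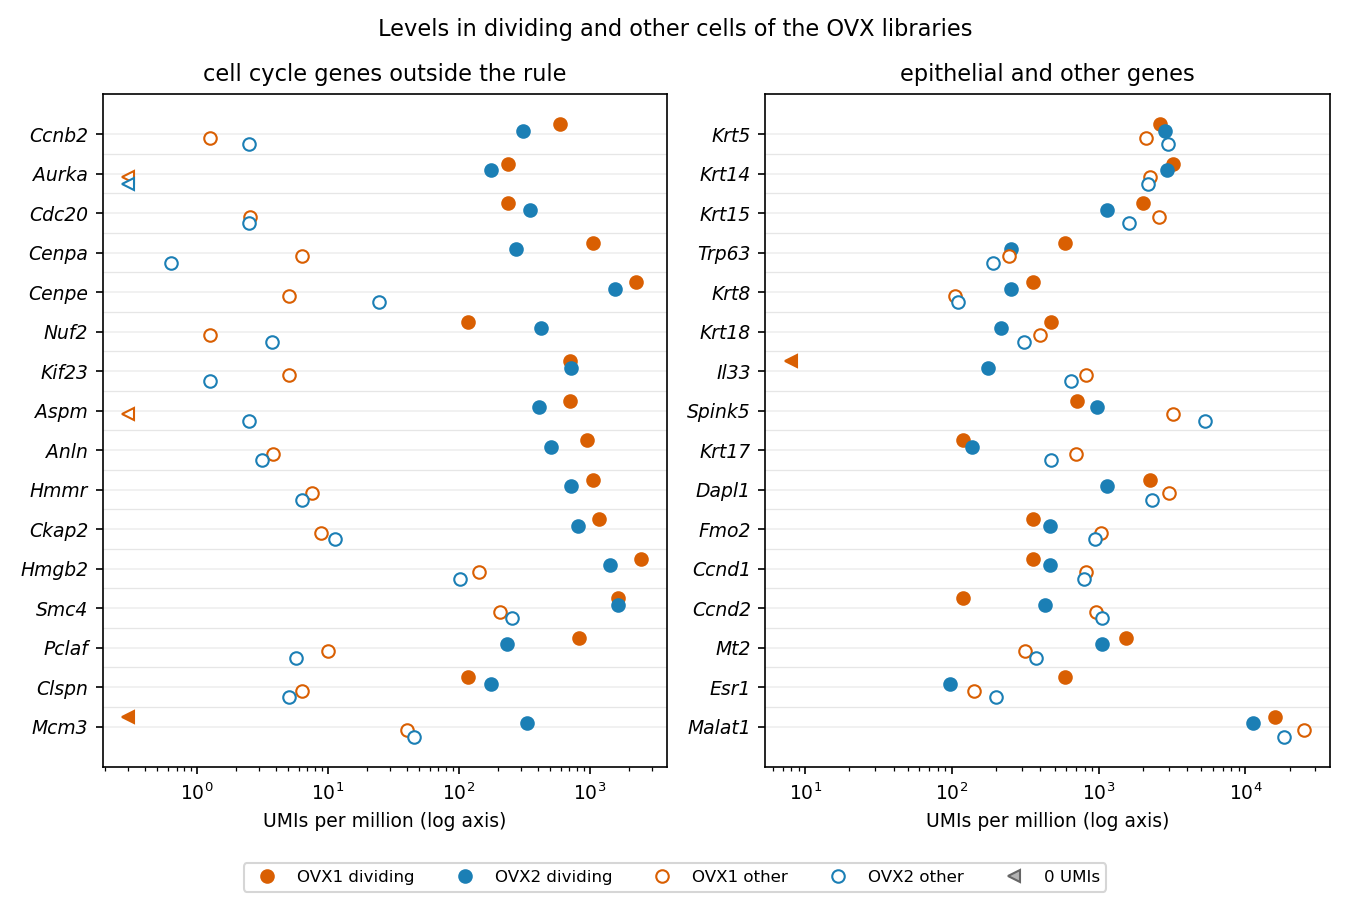
CPM (log axis) in dividing cells (filled) and other cells (open) of each OVX library, for cell cycle genes outside the rule (left) and epithelial and other genes (right); triangles at the left edge mark sums with 0 UMIs. Mitotic genes such as Kif23 (710 and 722 against 5.06 and 1.26) are separated by orders of magnitude, while Krt5 and Krt14 lie close together.

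The dividing cells left after ovariectomy were also compared with the dividing cells of the intact epithelium, taken by the same rule, in 5222 genes. The edgeR test called 11 genes (0.211%), 4 (0.0766%) higher and 7 (0.134%) lower in OVX. The 4 were Krt8, Krt18, Fmo2 and Tst, the last outside the naming rule, and the 7 were Il1r2, Krt6a, Krtdap, Igfbp2, Krt6b, Krt16 and Gap43. Without OVX library 2, which holds 41 of the 50 cells, the test called 1 gene, and among cells with at least 1000 UMIs it also called 1. With the replicate number as a block it called 3 higher and 2 lower, and with the numbers crossed 6 and 11.

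Of 30 luminal and mucin genes in the files, 9 passed the gene filter and were tested. Of these, 3 were higher in the OVX dividing cells and none was lower: the simple keratins Krt8 and Krt18, and Fmo2. With WT levels of at most 5.44 CPM, these 3 could pass the filter only through their OVX counts. The filter thus shaped the 3 of 9, which is a description. Krt7 or Krt19, other simple keratins, had a UMI in 0 of 9 and 4 of 41 of the OVX dividing cells. Krt8 stood at 355 and 254 in OVX libraries 1 and 2 and at 0.453 and 3.5 in the WT libraries (log2 difference 7.39, SE 1.06, edgeR adjusted p = 2.08e-08), with 16 UMIs in OVX and 3 in WT, a ratio of 248 (95% counting interval 71 to 1328). Krt18 stood at 473 and 215 against 5.44 and 3.5 (log2 difference 5.53, SE 0.93, edgeR adjusted p = 5.61e-06). Fmo2 stood at 355 and 468 against 5.44 and 3.5 (log2 difference 6.19, SE 0.94, edgeR adjusted p = 1.57e-07). The groups did not overlap for any of the 3. Lack of overlap was, however, also asked of genes named between OVX and WT, and the share of all tested genes without overlap was not counted. These levels were not particular to dividing cells. By the values given above, the other OVX cells also stood above these WT values in Krt8 and Fmo2. Fmo2 was higher in them than in the dividing cells. Krt18 stood at 153 and 142 CPM in cluster 0 of OVX libraries 1 and 2. Without OVX library 2, Krt18 and Fmo2 were not called and Krt8 was not tested, and the call of Krt18 was also lost without WT library 1.

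Of 22 suprabasal genes tested, 4 were lower in the OVX dividing cells (Krt6a, Krtdap, Krt6b and Krt16) and none was higher. The other falls were Il1r2, Igfbp2 and Gap43. Genes with no UMI in the OVX dividing cells, such as Il1r2, Krt6b and Gap43, could pass the gene filter only through WT. Il1r2, the decoy receptor of interleukin 1, stood at 789 and 770 CPM in the WT dividing cells and had 0 UMIs in all 50 OVX cells, at least 15.6-fold lower (edgeR adjusted p = 6.99e-04). Krt6a, a keratin of activated epithelium, stood at 1406 and 1243 against 118 and 0, with 1 UMI in OVX (ratio 82, 95% counting interval 14.7 to 3239). Krtdap stood at 1027 and 1982 against 237 and 58.5 (log2 difference -4.23, SE 1.00, edgeR adjusted p = 0.017). Igfbp2, an IGF binding protein, and Krt16 had 2 UMIs each in the OVX cells. Krt6b and Gap43, a growth-associated protein, had 0 and were at least 6.5-fold and at least 4.87-fold lower.

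All 7 falls were lost without OVX library 2 and in cells with at least 1000 UMIs. Igfbp2, Krtdap, Krt16, Krt6b and Gap43 were also not called without OVX library 1 or with the replicate block, and Krt16, Krt6b and Gap43 were not called with DESeq2. For some of them the other cells of the OVX libraries were low as well. They held 9 and 19 UMIs of Il1r2, 0 and 1 of Krt6b, and 0 and 0 of Gap43, in sums of 790464 and 1585618 UMIs. This does not extend to all 7. Krt6a was among the leading genes of the suprabasal-like OVX cluster, and Krtdap stood at 250 and 171 CPM in cluster 2 of OVX libraries 1 and 2.

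Krt5 and Krt14 had lower CPM in the OVX dividing cells but did not pass the test. Krt5 stood at 2603 and 2809 CPM in the OVX dividing cells and at 18554 and 5149 in the WT ones (log2 difference -2.46, SE 0.86, edgeR adjusted p = 0.494). Krt14 stood at 3195 and 2906 against 13455 and 13266 (log2 difference -2.51, SE 0.87, edgeR adjusted p = 0.47). No OVX value reached a WT value for either gene, but the share of all tested genes without overlap was not counted. With 2 libraries a group the fit did not separate them, so neither gene is shown to differ. Trp63 overlapped, at 592 and 254 against 438 and 327, as did the basal keratin Krt15, at 2011 and 1131 against 1084 and 1455.

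**Figure D5:**
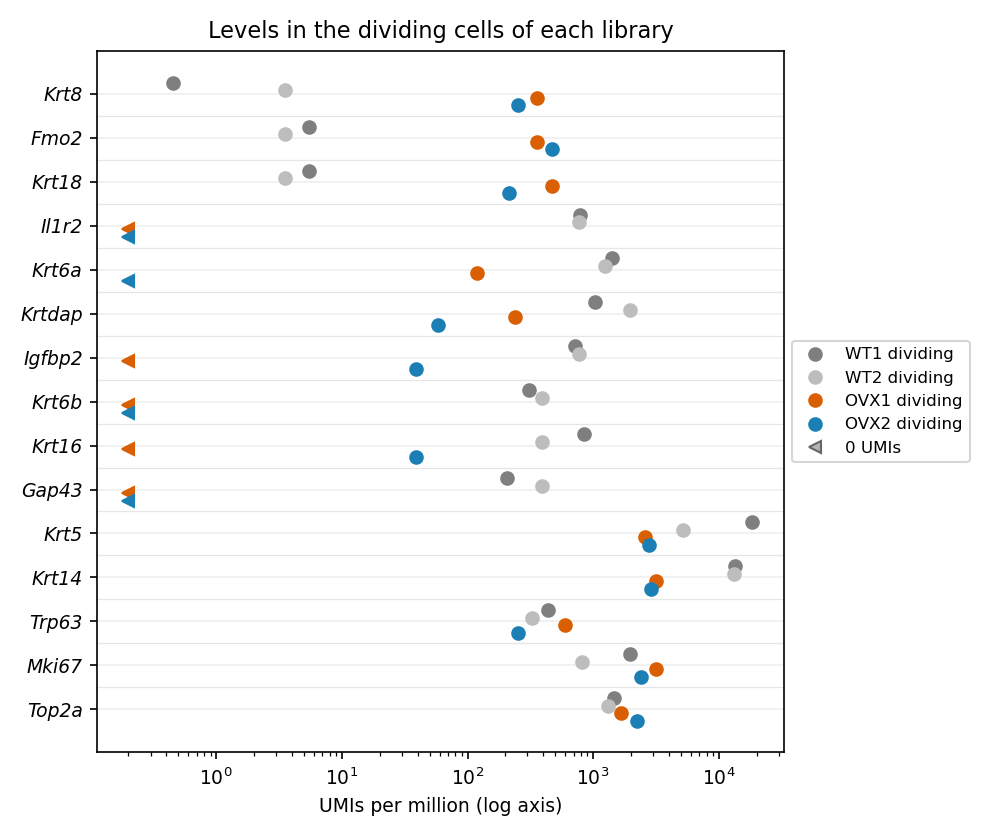
CPM (log axis) in the dividing cells of each library, for the named genes that differed between OVX and WT, the keratins Krt5 and Krt14, Trp63, and the rule genes Mki67 and Top2a; triangles at the left edge mark sums with 0 UMIs. Krt8, Fmo2 and Krt18 are higher in both OVX libraries, while Il1r2, Krt6b and Gap43 have 0 UMIs there.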

How the data were processed

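Single-cell RNA was measured by Drop-seq in 4 libraries of mouse vaginal epithelium, 2 WT and 2 OVX. The authors deposited 1 table of raw UMI counts per library (genes by cell barcodes, with 3000, 2000, 3000 and 2000 barcodes in WT 1, WT 2, OVX 1 and OVX 2). Per the submitters' processing notes the genome build was mm10 and Seurat 2 was used. The sources used here do not state the aligner, the annotation or how barcodes were chosen. The tables held 5845107, 1934634, 991112 and 1684967 UMIs in that order, and 0 columns of other samples. The members and the gene lists were chosen with earlier results of these data known.

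Counts were summed over dividing and other cells of each library, which gives 8 sums. They were tested with edgeR 4.0.16 (R 4.3.3, limma 3.58.1; TMM scaling, filterByExpr, quasi-likelihood test, Benjamini-Hochberg adjustment over all genes tested, threshold 0.05). The contrasts within a library used all 8 sums with the library as a block, since both classes came from the same library. This leaves 2 residual degrees of freedom. The prior degrees of freedom of that fit were infinite, so no gene kept a spread of its own. The square root of its common dispersion was 0.0425. For genes with few UMIs, these p-values therefore rest mostly on counting error. The 4 dividing sums were compared between OVX and WT without a block. There, the deviations of WT 1 and OVX 1 from their group means correlated at -0.147 over 5222 genes. Outside the rule genes the class test asks whether a gene was counted in the same cells as the 10 cycle genes. DESeq2 1.42.0 and the other alternatives are described in the closing section. The script was tested on simulated data.

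Named genes were the rule genes, a set of lineage genes and the 3 smallest p in each list. The 12 largest rises and 8 largest falls were added, with at least 20 counts in the higher class and 1 direction in both libraries. Between OVX and WT up to 6 genes each way were added, with at least 20 counts in the higher group and no overlap of libraries. Others are said to be chosen after their values were seen. OVX cells were clustered with scanpy 1.11.5 (30 principal components, 2000 variable genes without the listed cycle and MHC class II genes, 15 neighbours, Leiden at resolution 0.8). A cluster was named from at least 3 markers. Shares have exact 95% intervals, which like the floor of 3 counts cover counting error only. Neither a doublet caller nor a correction for free RNA was applied.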

Additional observations from a re-analysis of the deposited data

Results flagged for a closer look

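The class effect (dividing against other cells) differed between OVX and WT for 17 named genes, by edgeR's test of the difference itself. Differences are log2, OVX effect minus WT effect. Genes of the spindle and of cytokinesis had the larger effect in OVX: Kif23 by 3.38 (adjusted p = 1.68e-04), Aspm by 3.43 (0.00323), Anln by 2.98 (0.00126), Hmmr by 2.04 (0.0324) and Ckap2 by 2.12 (0.00215). The kinetochore genes Cenpa, Cenpe and Knl1 differed by 3.58, 2.22 and 3.18. Ccnb2, Cdkn3 and Ncapg differed by 3.21, 4.84 and 4.47. For Cdkn3 the effects were 8.08 in OVX and 3.24 in WT, and for Ncapg, which had no UMI in OVX library 1, 8.27 and 3.8.

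Mt2 had an effect of 1.21 in OVX and -0.18 in WT, a difference of 1.39 (edgeR adjusted p = 0.0315). Krt15 was lower in the dividing cells of OVX (-0.99) and higher in those of WT (0.78), a difference of -1.77 (edgeR adjusted p = 1.09e-08). It stood at 1084 and 1455 CPM in the dividing cells of the WT libraries against 549 and 820 in their other cells. Spink5 differed by -1.83, Il33 by -2.05, Malat1 by -1.25 and Tmem176b, a membrane protein chosen after its values were seen, by -2.06; the effects of Tmem176b were -1.39 in OVX and 0.67 in WT.

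None of these 17 differences passed when WT library 1 or WT library 2 was left out. In cells with at least 1000 UMIs, the 12 positive ones did not pass and the 5 negative ones did. The causes were not tested.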

How the results depend on the processing

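In the comparison of dividing with other OVX cells, 194 genes passed. The number was 67 without the replicate block, 68 with the OVX libraries only and 80 within the basal-like clusters and cluster 2. Leaving out each library in turn gave 73 to 277. Of the 58 named genes past the threshold, 36 rises and 22 falls, DESeq2 called 33 and 7 and the fit without the replicate block 27 and 0. Without OVX library 2, the rises of 4 genes with no UMI in the dividing cells of OVX library 1 became negative fitted values, none past the threshold. These were Knl1 (-5.33, against 7.16 without OVX library 1), Mcm3 (-8.72 and 2.54), Atad2 (-8.80 and 2.18) and Hells (-9.39 and 2.14). Ncapg had no UMI in either class of OVX library 1, so its -0.00 there (8.34 without OVX library 1) measures nothing. Krt14 went to 0.42 with totals alone.

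Between OVX and WT dividing cells, 11 genes passed. The number was 27 without a gene filter, 7 with at least 5 cycle UMIs per cell, 24 with at least 2, 1 in cells with at least 1000 UMIs, 5 with the replicate block and 17 with the pairing crossed. Leaving out each library gave 1 to 25. The difference of the class effects passed in 26 genes, and in 55 with totals alone, 16 with DESeq2, 68 with at least 5 cycle UMIs and 10 in cells with at least 1000 UMIs. It passed in 0 to 53 genes with a library left out; 0 stood against 130 genes at an unadjusted p under 0.05 without WT library 1 and 207 without WT library 2. Without OVX library 2 it was -8.73 for Knl1 (highest 3.86 over the libraries left out) and -3.90 for Ncapg (highest 5.10), with no UMI of either gene in the dividing cells of OVX library 1.

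The difference in the share of dividing cells lay between -14.1 and -31.8 percentage points in all alternatives, with -25.3 as reported. The share of dividing cells in basal-like clusters went from 40% to 90% at resolution 0.4. Totals alone, the crossed pairing and the restriction to clusters were chosen after seeing the data. The 9 dividing cells of OVX library 1 hold 8452 UMIs, so a gene under 436 CPM can have no UMI there by counting alone. The causes of these changes were not tested.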
